A study of Mus musculus with 3 samples.

Results

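The genes of MHC class I antigen presentation were followed in mouse cardiac fibroblasts and in cardiomyocyte-like cells reprogrammed from them. The group holds 10 genes of the 54532 in the deposited tables, chosen by name: H2-K1, H2-D1, B2m, Tap1, Tap2, Tapbp, Psmb8, Psmb9, Psmb10 and Nlrc5. All 10 had a row and were counted in every library, with 298 to 42826 counts. RNA-seq was compared between 3 libraries with 1 library per condition, so no difference below has a replicate check, and no p-value can be given.

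The fibroblasts, called MICFs, were isolated from the hearts of adult Myh6-mCherry mice 5 days after myocardial infarction, which was induced in mice 8 weeks old. In these mice the Myh6 promoter drives mCherry in cardiomyocytes. The MICF library came from cells kept without virus for the same 4 weeks of culture, and no sort for mCherry is described for it. GMTMS-iCMs are induced cardiomyocytes made with Gata4, Mef2c, Tbx5, Myocd and Sall4 from doxycycline-inducible lentiviruses, with doxycycline at 1 µg/ml. GMTMM stands for Gata4, Mef2c, Tbx5, Myocd and Mesp1, delivered in the same way. The cells of both cocktails were sorted for mCherry after 4 weeks, and 5 sorted samples were mixed into each library. Sorting and transduction therefore cannot be told apart in either comparison with MICFs, and whether the MICFs were given doxycycline is not stated. Sall4 had 0 counts in MICFs, 1190 in the GMTMS-iCM library and 1060 in the library labelled GMTMM, and Mesp1 had 0 counts in every library. The label GMTMM is at odds with these counts, so every direction drawn from it carries that limit.

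Most nucleated cells can show peptides from their own proteins on MHC class I molecules, which CD8 T cells inspect. The proteasome cuts the proteins, the TAP transporter moves the peptides into the endoplasmic reticulum, and tapasin helps load them onto a heavy chain paired with its light chain. Interferons raise the genes of this pathway in many cell types, acting through STAT and IRF factors and through NLRC5, a transactivator that works at class I promoters. Cardiac muscle cells are known for low levels of class I at rest.

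Library totals came to 11861773 counts for MICFs, 10624118 for the GMTMS-iCM library and 11904484 for the library labelled GMTMM. Markers of several cell types were counted. The summed level of 8 fibroblast markers was 1.43% of counts in MICFs, 0.146% in the GMTMS-iCM library and 2.16% in the library labelled GMTMM. The collagens made up most of these sums. On the main scale 6 of the 8 markers in the library labelled GMTMM, which is described as sorted induced cardiomyocytes, were above MICFs. Only Postn was called higher, beside 2.12% of all genes. Tcf21 and Thy1 were below, at -0.17 and -0.06, but their direction depends on the scaling. By deposited FPKM, explained below, they were 1.14 and 1.36 times their level in MICFs, and relative to library totals 0.921 and 1.10 times. Of 8 cardiomyocyte markers, Myh6, Myl7, Ryr2 and Actn2 had 0 counts in MICFs, and the summed level was 0.000472% there, 0.301% in the GMTMS-iCM library and 0.120% in the library labelled GMTMM. The summed level of 6 endothelial markers was 0.225%, 0.00496% and 0.139%, in the order MICFs, GMTMS and GMTMM. Because these are bulk libraries, fewer cells of a type and less RNA per cell cannot be told apart.

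The 10 class I genes together took 0.562% of all counts in MICFs, 1.03% in the GMTMS-iCM library and 0.951% in the library labelled GMTMM. The heavy and light chains made up most of this, with 0.507%, 0.925% and 0.859% of counts in the same order. The transduced libraries thus held a larger share of class I RNA than MICFs. The deposited FPKM (fragments per unit of gene length and of depth, here scaled by size factors and not by library totals) of each of the 10 genes was lowest in MICFs. The fold ran from 1.36 for Tap2 to 4.08 for Tap1 in GMTMS-iCMs, with a median of 2.43 over the 10 genes, and from 1.44 for Nlrc5 to 3.73 for Tap1 in the library labelled GMTMM, with a median of 1.98. Each of these folds had a 95% Clopper-Pearson interval above 1. The intervals cover counting error only.

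**Figure D1:**
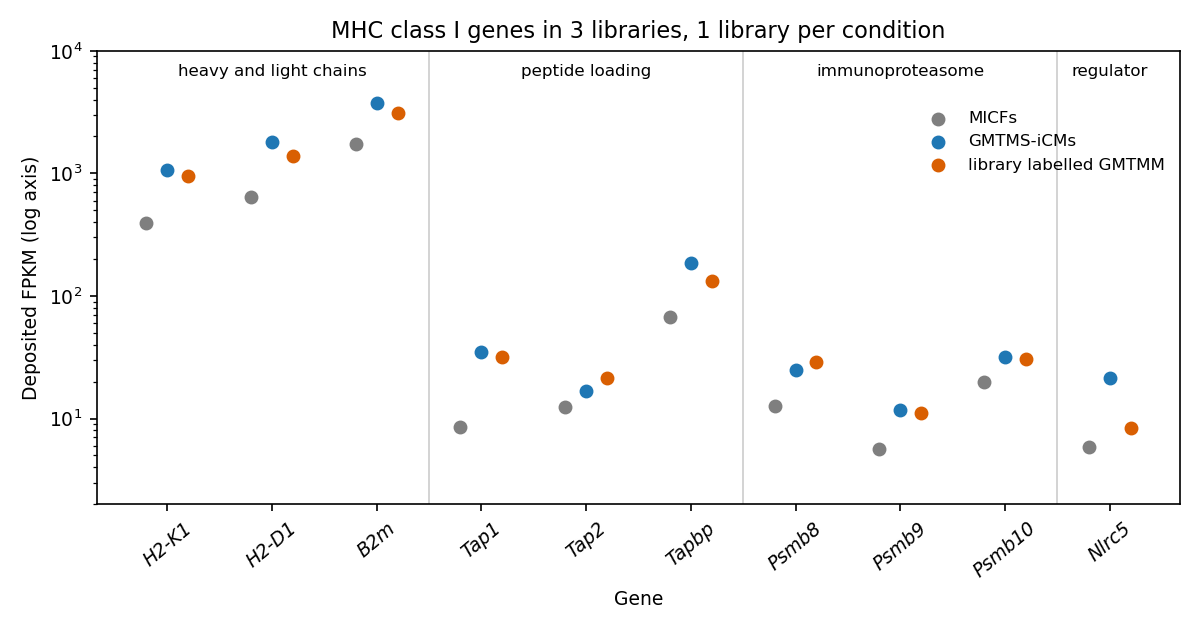
Deposited FPKM of the 10 MHC class I genes on a log axis, with 1 point per library: MICFs in grey, GMTMS-iCMs in blue and the library labelled GMTMM in orange. The grey point is the lowest of the 3 for each gene, and the levels span from 5.66 for Psmb9 in MICFs to 3747 for B2m in GMTMS-iCMs.

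Folds of single genes depend on how the libraries are scaled, and 3 scales are given. The main scale is log2 of FPKM plus 1 after quantile normalization over the 3 libraries, the order in the study's methods, and a gene was called when it differed by over 1 on it. Quantile normalization gives every library the same distribution of values, so the value of a very abundant gene follows its rank. Among the 1000 genes of highest mean FPKM, the median difference of GMTMS-iCMs from MICFs was -0.12 by the main scale and 0.50 without quantile normalization. In the library labelled GMTMM the same medians were -0.07 and 0.49. The third scale is CPM, the counts relative to the library total. On it the median over 10390 genes with FPKM of at least 1 in every library was -0.38 for the GMTMS-iCM library and -0.25 for the library labelled GMTMM, each relative to MICFs, compared with -0.04 and -0.10 on the main scale. Set against the median of those genes, the median of the 10 class I genes was higher by 0.75 to 1.21 in GMTMS-iCMs and by 0.71 to 0.94 in the library labelled GMTMM across 10 ways of scaling and filtering.

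On the main scale, Tap1 and Nlrc5 were called higher in GMTMS-iCMs than in MICFs, which is 2 of 10 class I genes, beside 3.13% of all genes. None of the 10 was called lower, beside 2.72% of all genes. In the library labelled GMTMM only Tap1 was called higher than in MICFs, 1 of 10 genes beside 2.12% of all genes, and none was called lower, beside 1.30%. Many of all genes had counts at or near 0 and could not differ by over 1, so the share among 4662 other genes in the same range of mean FPKM is a closer background. There, 13.8% were called higher in the GMTMS-iCM library and 10.0% in the library labelled GMTMM, against 20% and 10% of the class I genes. On the main scale the counts of called class I genes thus lay near this background. When quantile normalization was left out, or TMM or DESeq2 size factors were used, 6, 6 and 7 of the 10 were called higher in GMTMS-iCMs, beside 3.41%, 6.58% and 9.42% of all genes. In the library labelled GMTMM it was 4 of 10 under each, beside 2.41%, 6.54% and 7.09%. The share called in the same range of mean FPKM was not counted under these alternatives, so all genes are the only background for them. Without quantile normalization the median in that range was 0.27 for the GMTMS-iCM library and 0.21 for the library labelled GMTMM. On the main scale the median difference of the 10 genes was 0.73 in the GMTMS-iCM library and 0.61 in the library labelled GMTMM, beside -0.07 and -0.09 for the genes of the same range. By CPM the share of all genes called in GMTMS-iCMs was 2.41% higher and 6.92% lower, and in the library labelled GMTMM 2.26% higher and 3.42% lower.

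H2-K1 and H2-D1 encode the classical class I heavy chains that hold the peptide, and B2m encodes the microglobulin light chain that they need to reach the cell surface. Both heavy chains lie in the MHC on chromosome 17 of the GRCm38 assembly. H2-K1 (ENSMUSG00000061232) spans chr17:33996017-34000333 on the minus strand, and H2-D1 (ENSMUSG00000073411) spans chr17:35262730-35267499 on the plus strand. B2m (ENSMUSG00000060802) lies outside it, at chr2:122147686-122153083 on the plus strand.

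The 250 bases before the start of these 3 genes are shown because this stretch holds the elements through which class I promoters are known to respond to interferon, to NF-kB and to NLRC5. The sequences are those of RefSeq on GRCm38.p6, which had a promoter window for 8 of the 10 genes, and each is written 5′ to 3′ on the strand of the gene. Capitals mark matches, on either strand, to GAAANNGAA or GAANNGAAA (parts of the interferon-stimulated response element), TTCNNNGAA (a STAT site), GGNNTTNCC (an NF-kB site), CCAAT, and TGACG (part of the site shared by CREB and ATF factors). GAANNGAAA was added after the windows had been read.
H2-K1, chr17:34000334-34000583, minus strand: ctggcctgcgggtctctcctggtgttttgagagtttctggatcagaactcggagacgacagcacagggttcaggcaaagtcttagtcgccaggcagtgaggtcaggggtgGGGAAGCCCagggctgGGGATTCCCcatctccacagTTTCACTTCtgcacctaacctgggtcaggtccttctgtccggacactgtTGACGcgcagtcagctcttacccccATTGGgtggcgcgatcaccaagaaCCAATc
H2-D1, chr17:35262844-35263093, plus strand: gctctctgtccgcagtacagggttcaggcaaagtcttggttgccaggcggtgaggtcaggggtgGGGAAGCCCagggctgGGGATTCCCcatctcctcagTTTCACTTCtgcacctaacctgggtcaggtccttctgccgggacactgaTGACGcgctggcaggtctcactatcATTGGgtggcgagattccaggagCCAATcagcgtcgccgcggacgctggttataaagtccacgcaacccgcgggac
B2m, chr2:122147437-122147686, plus strand: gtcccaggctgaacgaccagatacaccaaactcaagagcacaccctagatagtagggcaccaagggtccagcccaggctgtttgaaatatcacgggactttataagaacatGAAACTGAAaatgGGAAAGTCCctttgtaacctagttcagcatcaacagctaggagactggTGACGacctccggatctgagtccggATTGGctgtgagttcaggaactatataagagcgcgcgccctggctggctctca

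The heavy-chain windows resembled each other closely. In a local alignment of both windows, 217 of 241 aligned bases were identical (90.0%), and both held GGGAAGCCC, GGGATTCCC and TTTCACTTC in the same order, followed by TGACG and 2 matches to CCAAT. These began 140, 124, 104 and 55 bases before the start in H2-K1, for the first 4, and 186, 170, 150 and 101 bases before it in H2-D1. B2m held GAAACTGAA 139 bases and GGAAAGTCC 126 bases before its start, and TGACG at 78 bases. No matches overlapped in these windows. Of all 32851 promoter windows of 300 bases, GAAANNGAA was found in 8.56%, GAANNGAAA in 7.52%, TTCNNNGAA in 8.30%, GGNNTTNCC in 16.0%, CCAAT in 37.4% and TGACG in 20.8%. A match describes letters only, and binding was not measured. The deposited H2-D1 gene begins upstream of the RefSeq start, so its window overlaps the deposited gene.

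H2-K1 had 14665 counts in MICFs, 25554 in the GMTMS-iCM library and 29008 in the library labelled GMTMM, or 391, 1055 and 952 FPKM. MICFs were the lowest on both measures, and the transduced libraries were close to each other. The FPKM fold over MICFs was 2.70 (2.65 to 2.76) in the GMTMS-iCM library and 2.44 (2.39 to 2.49) in the library labelled GMTMM, the CPM folds were 1.95 and 1.97, and the main-scale differences were 0.76 and 0.68. The direction was therefore the same on each scale, and the fold varied with the scaling by more than its counting interval.

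For H2-D1 there were 24008 counts in MICFs, 42826 in the GMTMS-iCM library and 41844 in the library labelled GMTMM, or 647, 1788 and 1389 FPKM. Again MICFs were the lowest. The FPKM folds were 2.76 (2.72 to 2.81) and 2.15 (2.11 to 2.18), the CPM folds 1.99 and 1.74, and the main-scale differences 0.66 and 0.75. H2-D1 was more abundant than H2-K1 in every library, by 1.66 (1.62 to 1.69), 1.69 (1.67 to 1.72) and 1.46 (1.44 to 1.48) per length in the order MICFs, GMTMS and GMTMM. Of the 50-base words of their transcripts, 8.11% of H2-K1 and 14.3% of H2-D1 also occur in another gene, mainly of the same family, so reads could be split among them.

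B2m was the most abundant of the 10 genes, with 21489, 29931 and 31440 counts, or 1737, 3747 and 3130 FPKM, in the order MICFs, GMTMS and GMTMM. By FPKM it was higher in both transduced libraries, with folds of 2.16 (2.12 to 2.20) and 1.80 (1.77 to 1.83), and by CPM it was 1.56 and 1.46 times the level of MICFs. On the main scale it was -0.24 in the GMTMS-iCM library and 0.00 in the library labelled GMTMM. B2m stood at rank 7, 8 and 7 among all genes by FPKM, and on the main scale its value is set by that rank. Its direction in GMTMS-iCMs therefore differs between scales. Within each library, the ratio of H2-K1 to B2m per length was 0.225 (0.220 to 0.230), 0.282 (0.277 to 0.286) and 0.304 (0.299 to 0.309), and that of H2-D1 to B2m was 0.373 (0.366 to 0.379), 0.477 (0.470 to 0.484) and 0.444 (0.437 to 0.450). A scaling by 1 factor per library leaves these ratios as they are. Both heavy chains were higher relative to the light chain in the transduced libraries than in MICFs.

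Tap1 and Tap2 together encode the transporter that carries peptides across the membrane of the endoplasmic reticulum, and Tapbp encodes tapasin, which bridges the transporter and the empty heavy chain. Tap1 (ENSMUSG00000037321) spans chr17:34187553-34197225, Tap2 (ENSMUSG00000024339) spans chr17:34203527-34216321 and Tapbp (ENSMUSG00000024308) spans chr17:33915899-33929288, all on the plus strand. Tap1 lies head to head with Psmb9, and the 225 bases between their RefSeq starts are shown because both genes share this stretch as a promoter. The strand is that of Tap1, and capitals mark the same motifs.
Tap1 and Psmb9, chr17:34187331-34187555, plus strand: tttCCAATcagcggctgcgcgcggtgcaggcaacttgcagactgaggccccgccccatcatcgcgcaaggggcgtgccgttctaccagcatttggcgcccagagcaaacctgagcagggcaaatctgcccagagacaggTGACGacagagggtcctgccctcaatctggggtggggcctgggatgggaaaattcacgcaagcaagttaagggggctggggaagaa
Only CCAAT and TGACG were matched, and TGACG began 86 bases before the start of Tap1. The other motif letters were not in this window. The deposited Psmb9 gene extends past its RefSeq start and covers this stretch. Of the remaining windows, that of Psmb8 held TTCCCAGAA 97 bases before its start, that of Tapbp held 2 matches to CCAAT, and that of Psmb10 held none of the motifs.

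Tap1 had 669 counts in MICFs, 1761 in the GMTMS-iCM library and 2026 in the library labelled GMTMM, or 8.49, 34.6 and 31.7 FPKM. It was the gene with the largest fold of the 10 over MICFs in both transduced libraries by FPKM and by CPM. The FPKM fold was 4.08 (3.73 to 4.46) in the GMTMS-iCM library and 3.73 (3.42 to 4.08) in the library labelled GMTMM, the CPM folds were 2.94 and 3.02, and the main-scale differences were 1.73 and 1.65. Its call held on each scale. By FPKM, Tap1 moved from a level above 77.3% of the detected genes in MICFs to one above 92.4% in the GMTMS-iCM library and 92.1% in the library labelled GMTMM.

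Tap2 did not keep pace with Tap1. It had 674 counts in MICFs, 590 in the GMTMS-iCM library and 952 in the library labelled GMTMM, or 12.4, 16.8 and 21.6 FPKM. The FPKM folds were 1.36 (1.21 to 1.52) and 1.74 (1.57 to 1.92), and the main-scale differences were 0.23 and 0.55. By CPM the fold in GMTMS-iCMs was 0.977 (0.874 to 1.09), so the direction there depends on the scaling, while in the library labelled GMTMM it was 1.41 (1.27 to 1.56). The ratio of Tap1 to Tap2 per length, which scaling by 1 factor per library leaves as it is, was 0.685 (0.615 to 0.764) in MICFs, 2.06 (1.88 to 2.27) in the GMTMS-iCM library and 1.47 (1.36 to 1.59) in the library labelled GMTMM. The order of the transporter genes was thus Tap2 above Tap1 in MICFs and Tap1 above Tap2 in both transduced libraries. Of the exon bases of Tap2, 18.5% lie in exons of other annotated genes, compared with 3.87% for Tap1, so some Tap2 reads are uncertain.

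Tapbp had 3187, 5729 and 5139 counts, or 67.2, 187 and 133 FPKM, in the order MICFs, GMTMS and GMTMM. MICFs were the lowest and GMTMS-iCMs the highest. The FPKM folds over MICFs were 2.78 (2.67 to 2.91) and 1.99 (1.90 to 2.08), the CPM folds 2.01 and 1.61, and the main-scale differences 0.83 and 0.41. Tapbp shares 29.0% of its exon bases with overlapping genes, measured on an annotation whose coordinates for Tapbp differ from the deposited ones.

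Psmb8, Psmb9 and Psmb10 encode the catalytic subunits that replace Psmb5, Psmb6 and Psmb7, in that order, when a proteasome is assembled as an immunoproteasome, the form known for cutting peptides that suit class I. Psmb8 (ENSMUSG00000024338) spans chr17:34197721-34201454 on the plus strand, between Tap1 and Tap2. Psmb9 (ENSMUSG00000096727) spans chr17:34181988-34187764 on the minus strand, and Psmb10 (ENSMUSG00000031897) spans chr8:105935735-105938444 on the minus strand. The deposited genes Psmb9 and Tap1 overlap at their ends, with 5.79% of the exon bases of Psmb9 shared. Psmb8 shares 14.7% of its exon bases.

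Psmb8 had 497 counts in MICFs, 637 in the GMTMS-iCM library and 930 in the library labelled GMTMM, or 12.6, 25.1 and 29.1 FPKM. It was the only one of the 3 that was highest in the library labelled GMTMM by FPKM. The FPKM folds were 1.99 (1.76 to 2.24) and 2.31 (2.07 to 2.58), the CPM folds 1.43 and 1.86, and the main-scale differences 0.70 and 0.93. Psmb9 had 298, 399 and 477 counts, or 5.66, 11.7 and 11.2 FPKM, in the order MICFs, GMTMS and GMTMM, and its transduced libraries were alike. The FPKM folds of Psmb9 were 2.07 (1.78 to 2.42) and 1.97 (1.70 to 2.29), the CPM folds 1.49 and 1.59, and the main-scale differences 0.90 and 0.80. Psmb10 differed least, with 484, 503 and 606 counts, or 19.7, 31.8 and 30.4 FPKM. Its FPKM folds were 1.61 (1.42 to 1.83) and 1.54 (1.37 to 1.74), its CPM folds 1.16 (1.02 to 1.32) and 1.25 (1.11 to 1.41), and its main-scale differences 0.32 and 0.30.

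The RNA of each immunoproteasome gene was set as a ratio to that of the constitutive gene it replaces, within a library and per length. Protein was not measured, so the exchange of subunits itself was not followed. The libraries hold RNA of markers of several cell types, and the part of these cells in the ratios was not tested. Psmb8 to Psmb5 was 0.289 (0.256 to 0.327) in MICFs, 0.658 (0.574 to 0.755) in the GMTMS-iCM library and 0.539 (0.485 to 0.599) in the library labelled GMTMM, so MICFs were the lowest. Psmb9 to Psmb6 was 0.183 (0.160 to 0.209), 0.138 (0.124 to 0.155) and 0.170 (0.153 to 0.189) in the same order, lower in GMTMS-iCMs than in MICFs by intervals that do not meet. After quantile normalization this order is lost, with ratios of 0.150, 0.154 and 0.179. Psmb10 to Psmb7 was 2.13 (1.87 to 2.43), 2.80 (2.44 to 3.21) and 2.38 (2.11 to 2.68), with the interval of MICFs meeting that of the library labelled GMTMM but not that of GMTMS-iCMs. The pairs therefore did not move together. The constitutive genes also differed between the libraries: Psmb5 had 43.7, 38.1 and 54.0 FPKM, Psmb6 had 30.9, 84.9 and 65.6 FPKM, and Psmb7 had 9.26, 11.4 and 12.8 FPKM. Psmb6 was 2.75 (2.52 to 2.99) times its level of MICFs in GMTMS-iCMs, more than Psmb9.

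**Figure D2:**
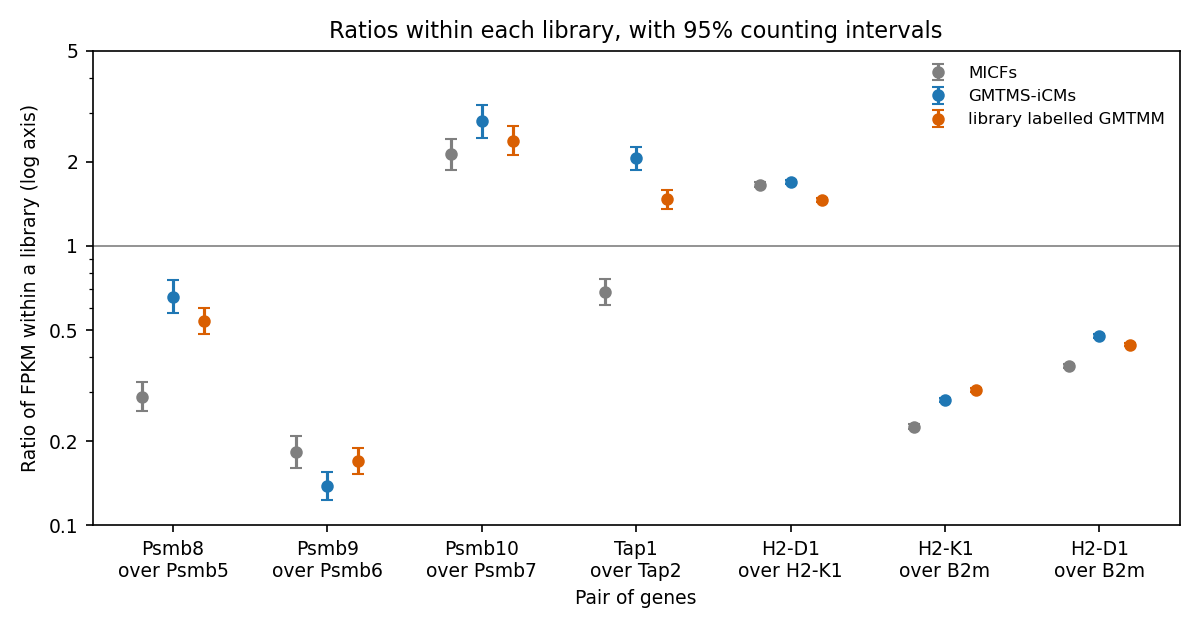
Ratios of FPKM within each library for 7 pairs of genes, on a log axis, with 95% Clopper-Pearson intervals for counting error as bars (MICFs grey, GMTMS-iCMs blue, library labelled GMTMM orange). Tap1 over Tap2 passes from 0.685 in MICFs to 2.06 and 1.47, and Psmb8 over Psmb5 from 0.289 to 0.658 and 0.539, while Psmb9 over Psmb6 is 0.183, 0.138 and 0.170 with these deposited values and 0.150, 0.154 and 0.179 after quantile normalization.

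Nlrc5 (ENSMUSG00000074151, chr8:94434356-94527272, plus strand) encodes the transactivator of the class I genes. It had 713 counts in MICFs, 1681 in the GMTMS-iCM library and 836 in the library labelled GMTMM, or 5.83, 21.3 and 8.43 FPKM. GMTMS-iCMs stood apart from the other libraries. The FPKM fold over MICFs was 3.65 (3.34 to 3.99) in the GMTMS-iCM library and 1.44 (1.31 to 1.60) in the library labelled GMTMM, the CPM folds were 2.63 and 1.17, and the main-scale differences were 1.61 and 0.42. Other genes share 0.918% of its exon bases.

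**Figure D3:**
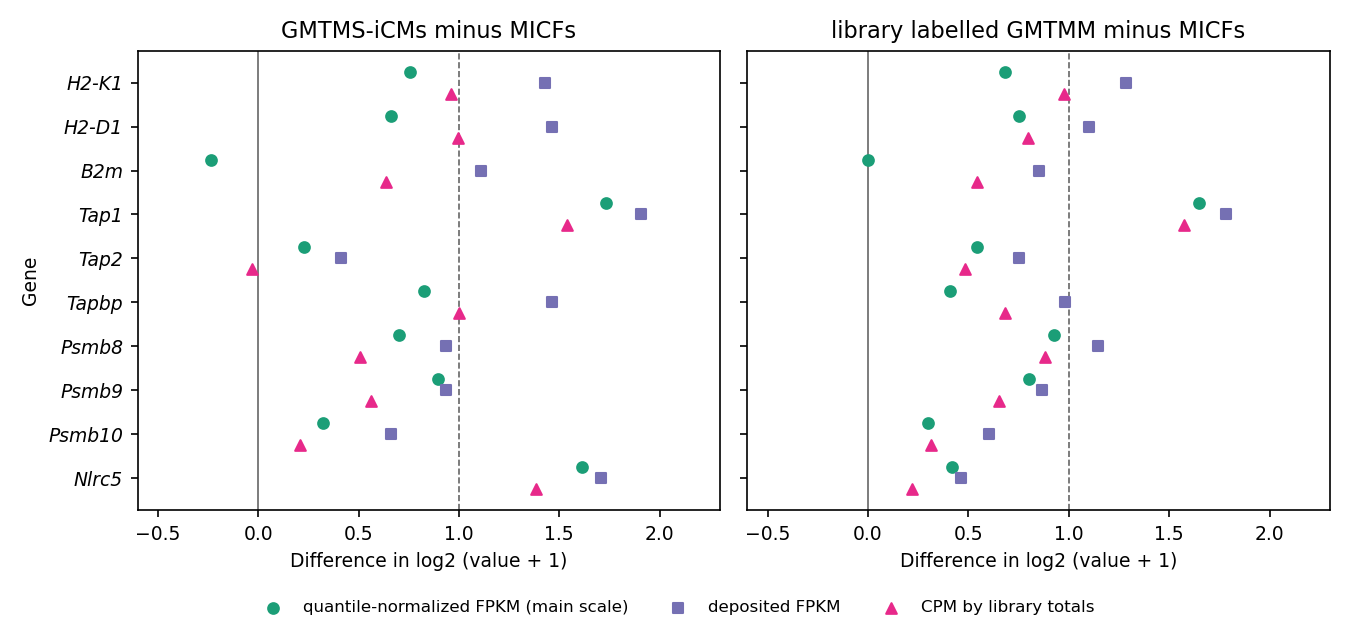
Differences from MICFs in log2 (value + 1) for the 10 genes, with GMTMS-iCMs on the left and the library labelled GMTMM on the right, on 3 scales: quantile-normalized FPKM (circles), deposited FPKM (squares) and CPM by library totals (triangles). The dashed line is the threshold of 1. Tap1 lies beyond it on each scale in both panels and Nlrc5 only on the left, and B2m moves from -0.24 on the main scale to 1.11 with deposited FPKM on the left.

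Between the transduced libraries, Nlrc5 was the only class I gene called, 1 of 10 higher in GMTMS-iCMs than in the library labelled GMTMM. Beside it, 2.33% of all genes were called higher, and 9.50% in the range of mean FPKM of the class I genes. None of the 10 was called lower, beside 2.84% of all genes and 11.8% in that range. The count of called class I genes thus lay near that of the range. By CPM 1.68% of all genes were called higher and 4.48% lower. The Nlrc5 difference was 1.19 on the main scale, and its FPKM fold was 2.53 (2.33 to 2.75). The median over the 10 genes was 0.05, so as a group they were near the same level in both. Tapbp was higher in GMTMS-iCMs, with an FPKM fold of 1.40 (1.35 to 1.46) and a difference of 0.42. Tap2 was lower, with a fold of 0.779 (0.702 to 0.865) and a difference of -0.32, and Psmb8 was lower, with a fold of 0.861 (0.778 to 0.954) and a difference of -0.22. These 4 genes kept their direction by CPM, where the folds were 2.25 for Nlrc5, 1.25 for Tapbp, 0.694 for Tap2 and 0.767 for Psmb8. H2-D1 and B2m were higher in GMTMS-iCMs by FPKM, with folds of 1.29 and 1.20, and lower on the main scale, with differences of -0.09 and -0.24. H2-K1 and Tap1 had FPKM folds of 1.11 and 1.09 and CPM folds of 0.987 and 0.974. The intervals of Psmb9 and Psmb10 included 1 on both.

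The order of levels per length was B2m, H2-D1, H2-K1 and Tapbp from the top in all 3 libraries. Below them, the order by FPKM in MICFs was Psmb10, Psmb8, Tap2, Tap1, Nlrc5 and Psmb9, in which Psmb8 and Tap2, and Nlrc5 and Psmb9, did not differ beyond counting error. In GMTMS-iCMs it was Tap1, Psmb10, Psmb8, Nlrc5, Tap2 and Psmb9, with Tap1 and Psmb10 not told apart. In the library labelled GMTMM it was Tap1, Psmb10, Psmb8, Tap2, Psmb9 and Nlrc5, with neither Tap1 and Psmb10 nor Psmb10 and Psmb8 told apart. Tap1 changed its place most, from position 8 of the 10 in MICFs to position 5 in both transduced libraries.

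The rest of the pathway was described with 7 further lists of 69 genes. Compared with MICFs, 16 of the 69 were called higher in the GMTMS-iCM library and 14 in the library labelled GMTMM, and none was called lower in either, with medians of 0.18 and 0.13. These are 23.2% and 20.3% of the list genes, beside 3.13% and 2.12% of all genes and 13.8% and 10.0% in the range of mean FPKM of the 10 class I genes. That range was not matched to the lists, and some list genes, such as H2-T3, H2-Q2 and H2-M5, lay below it. The lists were also chosen with earlier results of these data known, so their shares, here and below, are descriptions only. Between the transduced libraries 2 were called higher in GMTMS-iCMs, or 2.90% beside 2.33% of all genes and 9.50% in that range, and none lower. The genes called were spread unevenly over the roles.

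Upstream of the transporter lies the proteasome. None of the 11 structural core genes was called in either library, with medians of -0.14 and 0.11, and none of the 3 constitutive catalytic genes, of which Psmb6 came closest with differences of 0.96 and 0.65. Like these, the 3 immunoproteasome genes were not called. Of all genes 3.13% and 2.12% were called higher, and 13.8% and 10.0% in the range of the class I genes. At such shares, no call in lists this short says little. Of the 5 genes of proteasome activators and assembly, only Psme2 was called, or 20% in each library beside the same shares. Psme2 encodes a subunit of the activator that interferon induces. It had 263 counts in MICFs, 751 in the GMTMS-iCM library and 776 in the library labelled GMTMM, and the differences were 1.81 and 1.58. Its partner Psme1 had 822, 994 and 1075 counts and differences of 0.46 and 0.31. The ratio of Psme2 to Psme3, a subunit of another activator, was 0.563 (0.488 to 0.648) per length in MICFs, 1.56 (1.41 to 1.73) in the GMTMS-iCM library and 1.81 (1.63 to 2.00) in the library labelled GMTMM.

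None of the 5 genes of peptide trimming and loading was called, beside the same shares, and their medians were -0.31 and -0.13. Erap1, the aminopeptidase that trims peptides in the endoplasmic reticulum, had 871, 944 and 734 counts and differences of 0.58 and -0.02. Calr, the chaperone calreticulin, had 8432, 6488 and 9785 counts and differences of -0.50 and -0.13.

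Of 18 non-classical and MHC-like class I genes, 6 were called higher in the GMTMS-iCM library and 5 in the library labelled GMTMM, or 33.3% and 27.8%, beside 3.13% and 2.12% of all genes and 13.8% and 10.0% in the range of the class I genes. H2-Q6 had 134 counts in MICFs, 1568 in the GMTMS-iCM library and 2988 in the library labelled GMTMM, and H2-Q7 had 161, 1217 and 1819. The FPKM folds were 18.1 (15.2 to 21.8) and 27.5 (23.1 to 32.9) for H2-Q6, and 11.7 (9.93 to 13.9) and 13.9 (11.8 to 16.5) for H2-Q7, above the fold of each of the 10 genes. H2-Q4 had 1030, 2687 and 4026 counts, with FPKM folds of 4.04 (3.76 to 4.35) and 4.82 (4.50 to 5.16). H2-M2 had 6, 186 and 78 counts, with differences of 3.40 and 2.03. It was also called higher in GMTMS-iCMs than in the library labelled GMTMM, by 1.37, as was H2-T24 by 1.03. H2-T10 had 93, 187 and 273 counts and H2-Q1 had 14, 44 and 52, and the difference of H2-Q1 in the library labelled GMTMM, 0.93, was under the threshold. H2-T23, whose product Qa-1 is a ligand of receptors on NK cells, had 2453, 3299 and 3561 counts and differences of 0.44 and 0.31, so it was not called. The Q and T genes share much sequence: 35.0% of the 50-base words of H2-Q6, 27.1% of H2-Q7, 36.9% of H2-Q4 and 50.1% of H2-T10 occur in another gene, compared with 1.67% for H2-M2. How reads with several matches were counted is not given in the sources used here, so the split among these genes is uncertain.

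Regulators that act on class I promoters were described next. Of 17, 6 were called higher in the GMTMS-iCM library and 5 in the library labelled GMTMM, or 35.3% and 29.4%, beside the same shares of 3.13% and 2.12% of all genes and 13.8% and 10.0% in the range of the class I genes. Irf1, an interferon-induced factor known to bind class I promoters, had 699 counts in MICFs, 6456 in the GMTMS-iCM library and 8272 in the library labelled GMTMM. The differences of Irf1 were 3.39 and 3.49, the largest of the list. Nfkb1, a subunit of NF-kB, had 1739, 9319 and 9411 counts and differences of 2.68 and 2.42. Stat2 differed by 1.69 and 1.24 and Irf7 by 1.69 and 1.70, both being factors of the type I interferon response. Rfxank, part of the complex through which NLRC5 reaches DNA, differed by 1.25 in the GMTMS-iCM library and 0.54 in the library labelled GMTMM, and Irf9 by 1.01 and 0.90. Rela passed the threshold only in the library labelled GMTMM, with 0.66 and 1.14. Rfx5, which binds DNA in the same complex as Rfxank, was at 0.13 and 0.08. Ciita, the class II counterpart of Nlrc5, had 138, 129 and 43 counts and differences of 0.40 and -0.51.

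Of 10 interferon ligands, receptors and kinases, 3 were called higher in both transduced libraries, or 30% in each, beside 3.13% and 2.12% of all genes and 13.8% and 10.0% in that range. Ifnb1, the gene of interferon beta, had 0 counts in MICFs, 215 in the GMTMS-iCM library and 142 in the library labelled GMTMM. Jak2, a kinase of the interferon gamma receptor, had 830, 4134 and 4992 counts and differences of 2.56 in both. Socs1, an inhibitor of this signalling that interferon induces, had 33, 293 and 687 counts and differences of 2.73 and 3.51. Ifng, the gene of interferon gamma, had 0, 0 and 12 counts. With 0 counts, as many as 3 remain possible, or 0.253 CPM for MICFs and 0.282 CPM for GMTMS-iCMs. None of the receptor genes Ifnar1, Ifnar2, Ifngr1 and Ifngr2 was called.

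**Figure D4:**
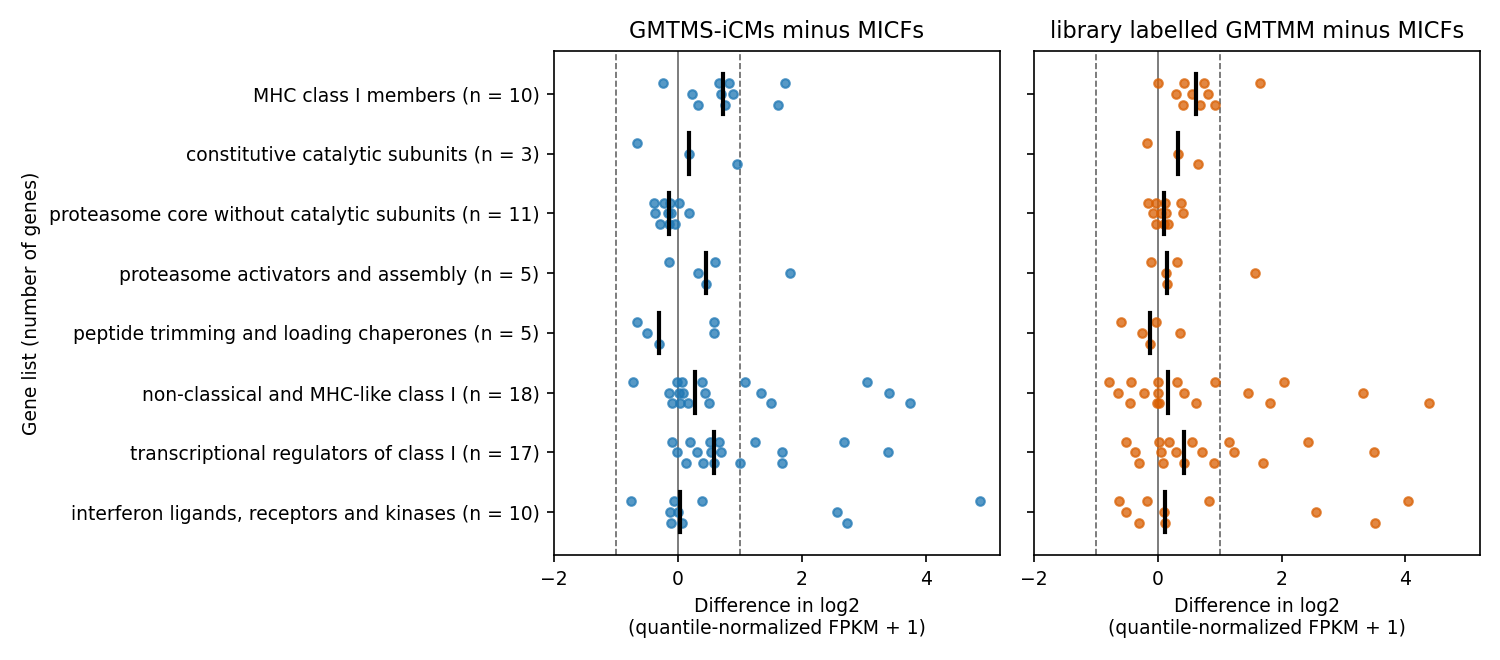
Differences from MICFs in log2 (quantile-normalized FPKM + 1) for the 10 class I genes and 7 other lists of the pathway, 1 point per gene, with the list median as a black bar and dashed lines at the threshold of 1 in either direction (left GMTMS-iCMs, right the library labelled GMTMM). The core proteasome lies around 0 with medians of -0.14 and 0.11, and the points beyond 3 are Ifnb1, H2-Q6, H2-M2, Irf1 and H2-Q7 on the left and H2-Q6, Ifnb1, Socs1, Irf1 and H2-Q7 on the right.

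Markers of immune cells, which can carry much class I, were counted in every library and are given beside the class I levels. All 10 macrophage markers were detected in each library, Lyz2 at 6135, 11353 and 5495 FPKM in the order MICFs, GMTMS and GMTMM. By FPKM, Lyz2 stood at rank 1, 1 and 3 among all genes. The summed level of these 10 markers was 1.62% of counts in MICFs, 2.54% in the GMTMS-iCM library and 1.22% in the library labelled GMTMM. The fibroblast sums given above were 1.43%, 0.146% and 2.16%, and the cardiomyocyte sums 0.000472%, 0.301% and 0.120%, in the same order. RNA of macrophage markers was thus abundant in all 3 libraries, MICFs included. Lyz2 made up most of the macrophage sums. In GMTMS-iCMs 9 markers were above MICFs on the main scale, 3 of them called. Beside them, 3.13% of all genes were called higher, and 13.8% in the range of mean FPKM of the class I genes, which was not matched to the markers. None of the 10 markers was below, and Lyz2 was at 0. Their FPKM folds ran from 1.85 for Lyz2 to 14.2 for Cd14. All 10 were higher in GMTMS-iCMs than in the library labelled GMTMM, with a median of 1.05. Of these 6 were called, beside 2.33% of all genes and 9.50% in that range. Between the library labelled GMTMM and MICFs, single markers differed in direction. On the main scale the median of the 10 markers relative to MICFs was 0.55 for GMTMS-iCMs, and -0.62 for the other transduced library. In the latter 8 were below MICFs, 2 of them called lower, beside 1.30% of all genes and 4.78% in that range. Cd14 and Itgam were above, Cd14 with 2219, 20292 and 11593 counts and differences of 3.07 and 2.15. By deposited FPKM, Adgre1 and Aif1 of the library labelled GMTMM were above MICFs as well, with folds of 1.02 and 1.13. The 8 T and NK cell markers summed to 268, 525 and 578 counts, of which Cd4 made 241, 508 and 229. Cd8a had 1, 1 and 63 counts, Nkg7 had 4, 1 and 62, and Gzmb had 11, 10 and 126, and Ncr1 was at 0 in both transduced libraries. The library labelled GMTMM was therefore the one with more of these 3 markers. The 6 dendritic cell markers summed to 311, 503 and 465 counts, of which Itgax made 155, 421 and 176. The others did not follow Itgax as a set. Zbtb46 had 119, 44 and 196 counts, Flt3 had 9, 1 and 37, and Clec9a had 24, 15 and 19. Xcr1 had 4, 17 and 33 counts, and Cd209a had 0, 5 and 4. The part of these cells in the class I levels was not tested. Endothelial cells also carry class I, and their markers were lower in both transduced libraries than in MICFs, as given above.

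The 5 protein-coding genes outside the group whose pair of differences from MICFs lay nearest to the median pair of the class I genes, 0.73 and 0.61, were Gm47283, Ugcg, Dnttip2, Zfp628 and Vps37c. The distances were 0.0281, 0.0345, 0.0384, 0.0388 and 0.0473 on the log2 scale, out of 9602 candidates, over 3 libraries. Ugcg, the enzyme that makes glucosylceramide, had 1760 counts in MICFs, 2584 in the GMTMS-iCM library and 2910 in the library labelled GMTMM, with differences of 0.73 and 0.65.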

How the data were processed

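RNA of 3 mouse libraries was sequenced as paired reads of 150 nucleotides. The authors deposited raw counts per gene and FPKM per gene for 54532 genes. The submitters' processing notes name HISAT2 2.0.5 and mm9, whereas the deposited coordinates are those of GRCm38 (98.3% of the genes found in GENCODE M21 have identical coordinates). The counting tool, strand and handling of multiple matches are not given in the sources used here. Of the 3 columns, 2 carry the names of the cocktails, and the remaining one, cMF, was taken as MICFs.

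FPKM were quantile-normalized over the 3 libraries with ties averaged, then taken as log2 (FPKM + 1), and a difference over 1 was called. Folds are ratios of deposited FPKM, or of CPM computed from the counts, with 95% Clopper-Pearson intervals. The library sizes behind the deposited FPKM equalled DESeq2 size factors (1.26, 0.811 and 1.02 for MICFs, GMTMS and GMTMM) times a constant. No test was run, with 1 library per condition. The group's genes and the lists were chosen with earlier results of these data known. Named were all genes of the group, in each list genes past the threshold with over 10 counts (at most 6), fixed examples, and the 5 nearest patterns. Genes outside this rule (H2-T24, Rela, Psme3, the interferon receptors, markers and delivered factors) are named as list members or checks. Some list members are not reported here. Steps were tested on simulated data. Shared sequence was measured on GENCODE M21 with words of 50 bases. The coordinates of H2-K1, Tapbp and Psmb9 there differ from the deposited ones, so their shares are approximate. Tools were Python 3.11.15, Biopython 1.88, R 4.3.3, edgeR 4.0.16 and DESeq2 1.42.0.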

Additional observations from a re-analysis of the deposited data

Results flagged for a closer look

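Of 79 class I pathway genes, 19 were above MICFs in one transduced library and below in the other on the main log2 scale. For 5 of them both differences were larger than the counting error of the gene, taken as the half-width of its 95% interval on the log2 scale. With 1 library per condition these differences were not tested. The share of all genes with opposite directions was not counted, so the 19 and the 5 have no background and are descriptions only. None of the 5 was one of the 10 genes of the group. H2-T24 differed by 1.03 between GMTMS-iCMs and the library labelled GMTMM, being 0.39 above MICFs in the first and 0.64 below in the second (-0.64). Irf8 differed by 0.88 (0.52 and -0.36 against MICFs) and Nfya by 0.61 (0.31 and -0.30). Psmb4 differed by -0.39 (-0.22 and 0.17) and Ifnar2 by -0.22 (-0.12 and 0.10).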

How the results depend on the processing

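No called difference of a class I gene changed direction under any alternative run. Of the uncalled ones, B2m and Tap2 did against MICFs, and H2-K1, H2-D1, B2m, Tap1, Psmb9 and Psmb10 between the transduced libraries. No paired analysis was possible because every group holds a single library. Leaving out a replicate was not possible for the same reason. The number of class I genes called higher than MICFs moved most with the scaling. In GMTMS-iCMs it was 2 on the main scale, 6 without quantile normalization, 6 with edgeR's TMM log2 CPM and 7 with DESeq2 size factors, and the median difference became 1.27, 1.19 and 1.27. In the library labelled GMTMM it was 1 on the main scale and 4 under each of those alternatives, with medians of 0.92, 0.95 and 0.98. The share of all genes called higher rose less without quantile normalization, to 3.41% and 2.41%, than with TMM (6.58% and 6.54%) or DESeq2 size factors (9.42% and 7.09%). The share among genes of like mean FPKM was not counted for these alternatives. At a difference over 2, 0 class I genes were called in any comparison. Of the other lists, 8, 8 and 0 genes were called higher in the 3 comparisons. The comparisons are, in order, GMTMS-iCMs against MICFs, the library labelled GMTMM against MICFs, and GMTMS-iCMs against that library. In this order, 0.911%, 0.603% and 0.136% of all genes were called higher at this threshold, and 0.878%, 0.116% and 0.941% lower. At such shares, no call in a group as small as the class I genes says little. With DESeq2 size factors, 5 of the 69 genes of the other lists were higher in GMTMS-iCMs than in the library labelled GMTMM, beside 8.28% of all genes. On the main scale it was 2, beside 2.33% of all genes. With quantile-normalized FPKM, the ratio of Psmb8 to Psmb5 in MICFs was 0.249 and that of Psmb9 to Psmb6 was 0.150. The other 114 of 135 values of a comparison moved by less than 1.5 times or their counting error. Across alternatives, the number of all genes called ran from 497 to 5138 higher and 479 to 4823 lower in GMTMS-iCMs than in MICFs (1708 and 1485 on the main scale), from 329 to 3865 and 63 to 3324 in the library labelled GMTMM (1156 and 708), and from 74 to 4515 and 513 to 4515 between the transduced libraries (1272 and 1550). CPM by library totals was chosen after the data were seen. Depth limits the least counted genes: with 298 to 497 counts in MICFs, Psmb9, Psmb10 and Psmb8 have the widest intervals.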
